A study of Mus musculus with 10 samples.

Results

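Translation initiation factors are the proteins that bring a messenger RNA, the initiator transfer RNA and the ribosomal subunits together at a start codon. The genes were all those with a symbol that begins with Eif and a digit, and 56 of the 23462 genes named on the array met that rule. They were measured in single testes of 10 male C57BL/6N mice at 6 weeks (42 days) of age. The 5 R mice were born to dams given 50% of the daily intake of control dams from 6.5 days post coitum onwards, and unrelated control dams raised them. The 5 C mice were born to dams fed ad libitum and stayed with their own mothers, and both groups ate regular chow ad libitum after weaning. Fostering therefore differed between the groups together with the prenatal diet, and the parts of the 2 cannot be told apart. The sources used here do not give the litters, so litter mates may be present in a group, and the p-values count the 10 animals as independent. The animals are written C1 to C5 and R1 to R5 in deposit order, and the numbers pair no animals.

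Initiation runs as a cycle. The factor eIF2 carries initiator transfer RNA to the small ribosomal subunit, where eIF1, eIF1A, eIF3 and eIF5 join it. The cap-binding protein eIF4E, the scaffold eIF4G and the helicase eIF4A bring in the capped messenger RNA, and eIF5 then triggers hydrolysis of the GTP that eIF2 holds. The exchange factor eIF2B recharges eIF2, and kinases that phosphorylate eIF2 block that step under stress. Male germ cells make much of their protein from stored messenger RNA after transcription has stopped, and several initiation factors have autosomal, X-linked or Y-linked copies with different use in the testis.

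Of the 55 initiation factor genes that were tested, 19 (34.55%) were called, 6 higher and 13 lower in R. Over all 16738 genes tested, 35.6% were called, 14.9% higher and 20.6% lower, so the share among the initiation factors was close to that of all genes. A call is an adjusted p under 0.05 from limma, and all values are log2 signals, the log2 of a probe's processed intensity minus the 75th percentile of its array. The 6 higher genes were Eif3j2, Eif2ak2, Eif4g1, Eif4g3, Eif4ebp3 and Eif5, with log2 changes from 0.63 to 0.42. The 13 lower genes were Eif2ak3, Eif2ak4, Eif5a2, Eif2b3, Eif4a2, Eif4a3, Eif1ax, Eif4e, Eif3i, Eif3j1, Eif3h, Eif1b and Eif4g2, with changes from −0.79 to −0.23. Over all genes 1657 (9.90%) passed the criterion of the study, a fold above 1.5 or under 0.66 with an adjusted p under 0.05. Among the 55 initiation factor genes 4 did, a share near that of all genes. These 4 were Eif3j2, Eif2ak2 and Eif4g1, which were higher, and Eif2ak3, which was lower.

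The groups did not overlap for 22 of the 55 genes, against 29.1% of all genes. They did not overlap for 18 of the 19 called genes, with Eif4g2 as the exception. Among the genes not called, Eif2b2, Eif2b5, Eif4ebp1 and Eif4enif1 had groups that did not overlap. The median change was −0.12 over the initiation factors and −0.03 over all genes. For 38 genes the 95% interval of the change lay within −0.5 and 0.5, so that differences beyond that size lie outside the interval.

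The reference sets part of the direction. With each array's median in place of its 75th percentile, the median over all genes moved by −0.21, and 27 initiation factors were called, 3 higher and 24 lower. Of all genes, 5.43% were then higher and 37.3% lower. The 13 lower genes kept their calls, as did Eif3j2, Eif2ak2 and Eif4g1. Eif5 (0.21, adjusted p = 0.0547), Eif4ebp3 (0.24, adjusted p = 0.10) and Eif4g3 (0.26, adjusted p = 0.126) did not, and the 11 calls gained with this reference were all lower. Eif3j2, Eif2ak2 and Eif4g1 then changed by 0.43, 0.40 and 0.39, short of a fold of 1.5. Eif2ak3 (−0.99) stayed under a fold of 0.66, which Eif2ak4 (−0.80), Eif5a2 (−0.71), Eif2b3 (−0.68), Eif4a2 (−0.65) and Eif4a3 (−0.63) also reached.

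**Figure D1:**
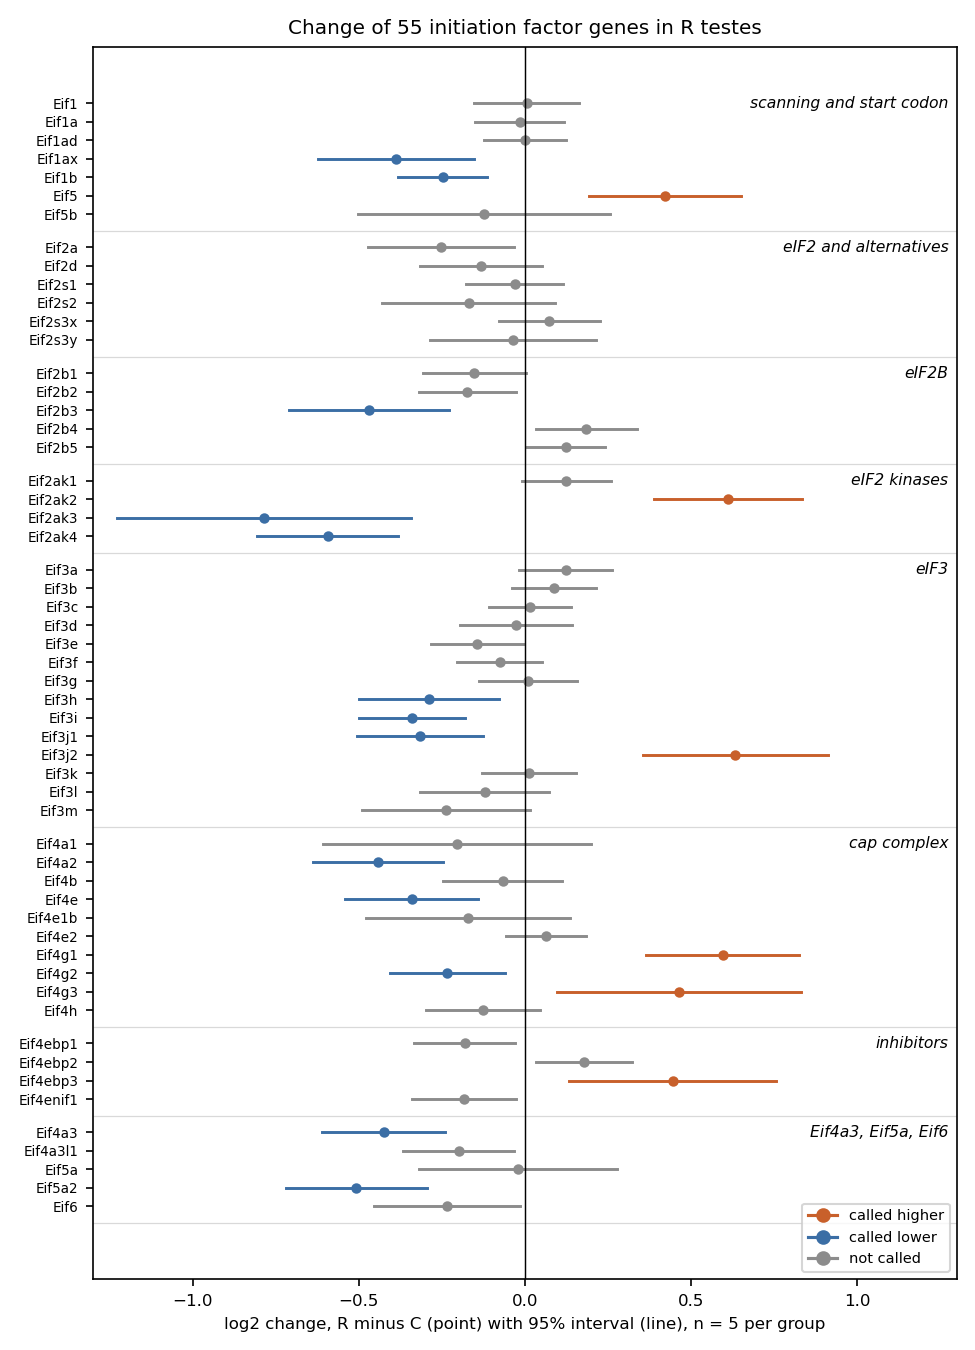
Log2 change of each of the 55 tested initiation factor genes in R testes against C testes (horizontal axis, R minus C), grouped by role, with its 95% interval as a line. The 6 genes called higher are orange and the 13 called lower are blue, and the changes run from −0.79 for Eif2ak3 to 0.63 for Eif3j2.

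The 75th percentile of an array's processed intensity lay between 804 and 1019, the median was 61.4 in C2 and 82.7 to 106 on the other arrays, between 56.6% and 67.4% of an array's spots were well above background, and 0 spots were saturated. The first principal component held 60.4% of the variance and put C2 at −123, against −29.5 to −13.9 for the other C arrays and 33.6 to 49.2 for the R arrays. For 16 of the 19 called genes C2 was the C array farthest from the R arrays, and all 19 were called without it. Slide 1 held 2 C and 4 R arrays and slide 2 held 3 C and 1 R arrays. All 19 called genes had the same sign on each slide, which was fixed in advance for the 18 whose groups did not overlap. On slide 1 alone Eif3h (adjusted p = 0.0645), Eif3i (adjusted p = 0.0578), Eif3j1 (adjusted p = 0.0835) and Eif4g2 (adjusted p = 0.202) missed the threshold, and slide 2 alone, with its 1 R array, gave no call. In a fit that took the slide as a block 18 of the 19 were called, with Eif4g2 lost (−0.18, adjusted p = 0.0633), and 31 initiation factors were called in all, 6 higher and 25 lower. Of all genes, 51.5% were called in that fit, 22.9% higher and 28.6% lower.

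Marker genes of several cell types of the testis differed between the groups as well. Over all genes 14.9% were called higher and 20.6% lower. The summed signal of 10 spermatogonial markers, in multiples of the array's 75th percentile, was 24.7 to 42.4 in C and 19.2 to 22.3 in R, with 6 members lower and 1 higher. That of 13 Sertoli cell markers was 318 to 465 in C and 264 to 322 in R, with 11 lower and 1 higher, and 5 of 9 macrophage markers, 3 of 8 Leydig cell markers and 3 of 4 blood markers tested were lower. Of 10 spermatocyte markers 5 were lower and 1 was higher, and of 8 markers of haploid germ cells, whose summed signal was 965 to 1156 in C and 1001 to 1140 in R, 1 was lower. None of 7 adipocyte markers was called, with summed signals of 1.99 to 8.39 in C and 3.12 to 12.7 in R, and 6 of 7 epididymal markers were above background on no array. Most initiation factors are made in all of these cells, and the part of the cell mix in each change below was not tested. In whole testes, fewer cells of a type and less RNA per cell cannot be told apart.

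The kinases of eIF2 moved in both directions. Each answers a different stress by phosphorylating the alpha subunit of eIF2, and 1 of the 4 was higher, 2 were lower and 1 was not called. Of all genes, 14.9% were called higher and 20.6% lower. Eif2ak2 encodes PKR, the kinase that double-stranded RNA activates and interferon induces. It read −0.50, −0.36, −0.27, −0.33 and −0.37 in C1 to C5 and 0.10, 0.61, 0.16, 0.14 and 0.21 in R1 to R5. All R arrays lay above all C arrays, and R2 was well above the other R arrays. Its signal was 1.53-fold higher in R (95% interval 1.31 to 1.78, adjusted p = 0.00286), with a log2 change of 0.63 in the slide-blocked fit, 0.68 on slide 1 and 0.53 on slide 2.

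Eif2ak3 encodes PERK, the kinase of the endoplasmic reticulum that responds to unfolded protein. Its log2 signals were −2.61, −2.13, −3.14, −3.04 and −2.59 in C1 to C5 and −3.76, −3.33, −3.24, −3.29 and −3.82 in R1 to R5. The C arrays were spread widely, and the lowest of them, C3, was just above the highest R array, R3. The signal was 1.72-fold lower in R (95% interval 1.27 to 2.34, adjusted p = 0.0139), and the log2 change of −0.79 was −0.98 in the slide-blocked fit, −1.03 on slide 1 and −0.90 on slide 2. With normexp background correction the change was smaller (−0.45, adjusted p = 0.0172). Eif2ak4 encodes GCN2, which senses uncharged transfer RNA when amino acids run short. It stood at −0.85, −0.74, −1.19, −1.14 and −1.13 in the C arrays and at −1.53, −1.58, −1.67, −1.63 and −1.63 in the R arrays. The R arrays lay close together and below every C array, with C1 and C2 the highest. Its signal was 1.51-fold lower (95% interval 1.30 to 1.75, adjusted p = 0.00267), a ratio of 0.663 that falls just short of the fold the study asked for. The change of −0.59 was −0.68 in the slide-blocked fit, −0.80 on slide 1 and −0.47 on slide 2.

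Eif2ak1 encodes HRI, the kinase that heme controls, and it was not called. Its signals ran from −0.89 to −0.72 in C and from −0.77 to −0.59 in R, and the groups overlapped (0.12, 95% interval −0.01 to 0.26, adjusted p = 0.121). The other probe of the gene changed by 0.28 and missed the threshold as well. Over the mean of both probes Eif2ak1 was called higher (0.20, adjusted p = 0.0470).

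**Figure D2:**
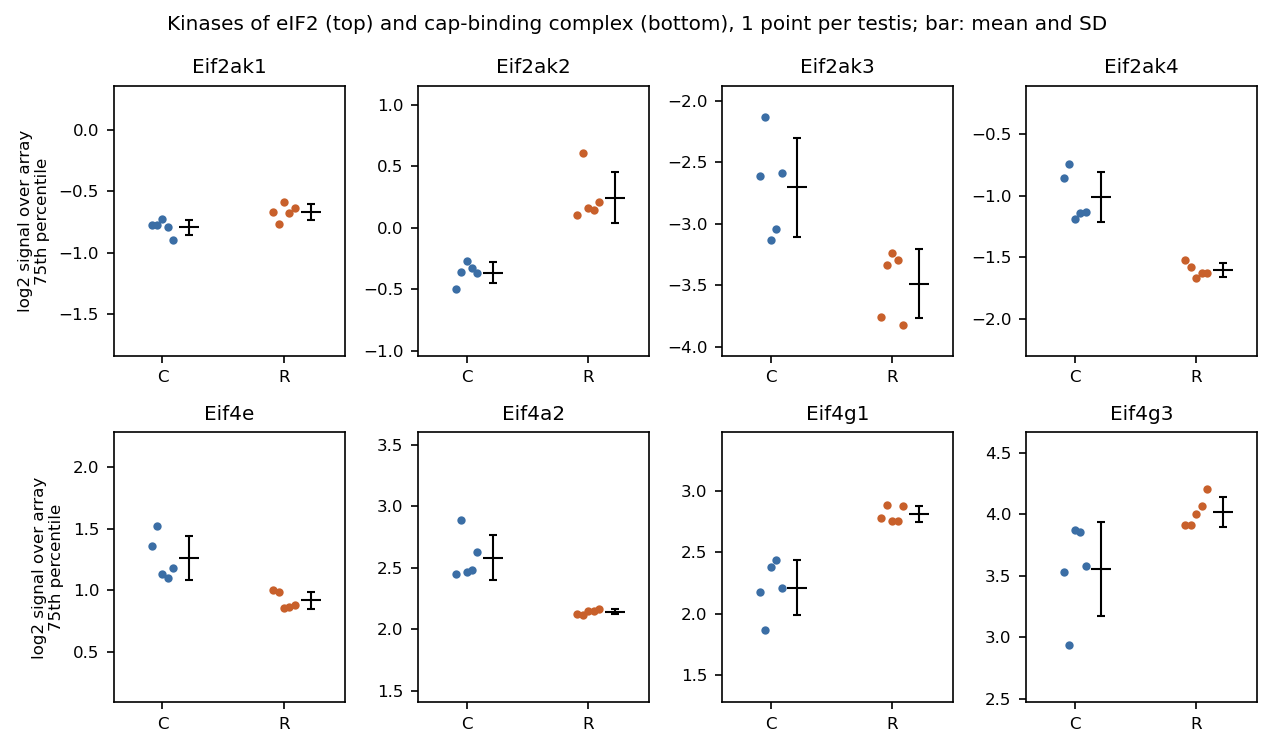
Log2 signal over the array's 75th percentile (vertical axis, of the same span in each panel) of the 4 kinases of eIF2 in the upper row and of 4 genes of the cap-binding complex in the lower row, 1 point per testis, with the mean and SD of each group as a bar. On the brightest probes shown, Eif2ak2, Eif4g1 and Eif4g3 are higher in R, and Eif2ak3, Eif2ak4, Eif4e and Eif4a2 are lower.

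The promoter of Eif2ak2 holds a run that matches the interferon response element (GAAA, any 2 bases, GAAA), and it is shown because this gene was the kinase that was higher. RefSeq windows of GRCm38.p6, from 250 bases before to 50 bases after an annotated start, were at hand for 44 of the 56 genes (57 windows). The 12 genes without one were Eif1a, Eif2b3, Eif3e, Eif3h, Eif3i, Eif3j2, Eif4e1b, Eif4e3, Eif4ebp1, Eif4ebp3, Eif4g2 and Eif6. In Eif2ak2 the match starts 19 bases into the transcript, on the minus strand at chr17:78882536-78882565, where capitals mark the match:
Eif2ak2: gagtccgccggGAAAACGAAAcagaagaga
The element, searched on both strands, was in 7.02% of the initiation factor windows and in 3.44% of all 32851 windows. The other 3 genes with a match were Eif2s1, Eif3a and Eif2s3x, none of them called. A match is a description of the sequence, and binding was not measured.

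Genes that act on the phosphorylation of eIF2 or respond to it were read from a list of 13, of which 12 were tested. In R 1 was higher and 4 were lower, against 14.9% and 20.6% of all genes. The median was −0.14, against −0.03 over all genes. Impact, an inhibitor of GCN2, was at −1.20 to −0.78 in C and at −1.65 to −1.51 in R, 1.49-fold lower (adjusted p = 0.00223). Ppp1r15b, the subunit that targets a phosphatase to eIF2 at rest, was at −1.19 to −1.04 in C and at −1.74 to −1.45 in R, 1.41-fold lower (adjusted p = 0.00170). The groups did not overlap for either gene. The adaptor Nck1 was lower by a smaller amount (−0.27, adjusted p = 0.0167), and Ppp1r15a, the stress-induced phosphatase subunit, passed narrowly (−0.35, adjusted p = 0.0495, up to 0.101 with 1 array left out). Gcn1, the activator of GCN2, was higher (0.35, adjusted p = 0.0109), but not with the array median as reference (adjusted p = 0.130). Atf4 and Ddit3, whose messages are translated better when eIF2 is phosphorylated, were not called (−0.07 and −0.02). Asns, Chac1 and Sesn2, which the factor ATF4 activates, were not called either, with changes of −0.01, 0.06 and −0.04. Trib3 (−0.49, adjusted p = 0.0503) and Dnajc3 (−0.21, adjusted p = 0.0582) missed the threshold, and Atf3 was above background on no array.

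Factor eIF2 itself had no call on its brightest probes in the fit without the slide. None of the 6 genes of eIF2 and of the alternative carriers of initiator transfer RNA was called, and their changes lay between −0.25 and 0.07. Over all genes 35.6% were called. Eif2s1, the alpha subunit that the kinases modify, was at 2.99 to 3.18 in C and at 2.90 to 3.11 in R, and the groups overlapped almost entirely. Its change of −0.03 had a 95% interval of −0.18 to 0.12, which leaves room for a difference of that size in either direction. Eif2s2, the beta subunit, changed by −0.17 (95% interval −0.43 to 0.09), with C2 the highest array at 4.38. The other carriers were Eif2a (−0.25, adjusted p = 0.0639) and Eif2d (−0.13, adjusted p = 0.214). In the slide-blocked fit Eif2s2 (−0.29, adjusted p = 0.0253), Eif2a (−0.31, adjusted p = 0.0291) and Eif2d (−0.21, adjusted p = 0.0344) were called lower. Eif2a was also called lower with the array median as reference (−0.46, adjusted p = 0.0275). The same held with quantile normalisation (−0.37, adjusted p = 0.023) and with array weights (−0.20, adjusted p = 0.0249).

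The gamma subunit has an X-linked and a Y-linked copy, and the Y-linked Eif2s3y is known to be needed for the multiplication of spermatogonia. Eif2s3x read 0.87, 1.03, 1.0, 0.97 and 1.19 in C1 to C5 and 1.08, 1.07, 1.04, 1.16 and 1.06 in R1 to R5. Eif2s3y read 0.37, 0.72, 0.15, 0.16 and 0.31 in the C arrays and 0.30, 0.33, 0.48, 0.22 and 0.20 in the R arrays. Both genes had groups that overlapped, and neither was called (0.07 and −0.04, adjusted p = 0.405 and 0.808). Over the mean of its probes Eif2s3x was called higher (0.34, adjusted p = 0.00904). The difference between the copies within an array was −0.11 from C to R (95% interval −0.41 to 0.19, exact permutation p = 0.444). That difference passed when the mean of each gene's probes was taken (−0.39, adjusted p = 0.0159) and in the slide-blocked fit (−0.23, adjusted p = 0.0417).

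A terminal oligopyrimidine run is a feature of many messenger RNAs of the translation machinery. By the rule used here the start of the X-linked copy carries one and that of the Y-linked copy does not. The annotated start of the Y-linked copy is an A that a run of pyrimidines follows at once, so the contrast rests on that base. The run was defined as C at the annotated start followed by 4 pyrimidines, which 3.51% of the initiation factor windows and 2.51% of all windows held. Eif3f, a subunit of eIF3, was the other gene with one. The 30 bases around the starts are at chrX:94212637-94212666 (minus strand), chrY:1010580-1010609 (plus strand) and chr7:108934400-108934429 (plus strand), and capitals mark the run of pyrimidines from the start:
Eif2s3x: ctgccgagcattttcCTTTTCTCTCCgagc
Eif2s3y: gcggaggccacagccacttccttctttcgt
Eif3f: tctgttctaggctctCTCTCTTTCTCggca
None of the 3 genes was called, and Eif3f changed by −0.08 (95% interval −0.20 to 0.05).

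Of the 5 subunits of eIF2B, 1 was lower and 4 were not called, against 20.6% of all genes lower and 14.9% higher. Eif2b3 encodes the gamma subunit, which belongs to the catalytic part of the factor. It read 0.23, 0.64, 0.05, 0.06 and 0.20 in C1 to C5 and −0.28, −0.17, −0.28, −0.23 and −0.21 in R1 to R5. Every C array was above 0 and every R array below it, with C2 the highest. The signal was 1.39-fold lower in R (95% interval 1.17 to 1.64, adjusted p = 0.00967), with changes of −0.54 in the slide-blocked fit, −0.68 on slide 1 and −0.31 on slide 2. All 3 of its probes were called lower, by −0.47, −0.67 and −0.60. The other subunits lay on both sides of 0: Eif2b1 at −0.15, Eif2b2 at −0.17, Eif2b4 at 0.19 and Eif2b5 at 0.12. The adjusted p was 0.0574 for Eif2b2, which was called lower in the slide-blocked fit (−0.20, adjusted p = 0.0360), and 0.0548 for Eif2b4.

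Among the 7 genes of scanning and start codon choice, 1 was higher and 2 were lower, against 14.9% and 20.6% of all genes. Eif5 encodes the activator of GTP hydrolysis by eIF2. It stood at 4.41, 4.16, 4.69, 4.70 and 4.59 in C1 to C5 and at 4.93, 4.96, 4.93, 4.89 and 4.95 in R1 to R5. The R arrays lay within a narrow band above all C arrays, and C2 was the lowest. Its signal was 1.34-fold higher (95% interval 1.14 to 1.57, adjusted p = 0.0122), with changes of 0.51 in the slide-blocked fit, 0.64 on slide 1 and 0.29 on slide 2, but it was not called with the array median as reference.

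Eif1ax, the X-linked gene of eIF1A, which keeps the scanning ribosome open, was lower. Its log2 signals were 3.07, 3.38, 2.79, 2.92 and 2.99 in the C arrays and 2.60, 2.74, 2.73, 2.57 and 2.56 in the R arrays. The groups were separate, with C3 and R2 the nearest arrays. The signal was 1.31-fold lower (95% interval 1.11 to 1.54, adjusted p = 0.0184). Its autosomal copy Eif1a, at 1.88 to 2.06 in C and at 1.85 to 2.01 in R, was not called (−0.02, 95% interval −0.15 to 0.12).

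Eif1b, a copy of the start codon gatekeeper Eif1, was lower too. It read 4.51, 4.71, 4.51, 4.50 and 4.54 in C1 to C5 and 4.28, 4.34, 4.31, 4.29 and 4.31 in R1 to R5. The groups were separate, and C2 was well above the other C arrays. The signal was 1.19-fold lower (95% interval 1.08 to 1.30, adjusted p = 0.0119), while Eif1 was not called (0.01, 95% interval −0.15 to 0.16). Eif1ad, which encodes a protein with an eIF1A domain, changed by 0.00 (95% interval −0.12 to 0.12). Eif5b, the GTPase that joins the ribosomal subunits, changed by −0.12 (95% interval −0.50 to 0.26) and was above background on all 5 C and on 4 of 5 R arrays.

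Of the genes of eIF3, the large scaffold on the small subunit, 28.57% were called, against 35.6% of all genes. Of its 14 genes 1 was higher, 3 were lower and 10 were not called, with changes of the last between −0.24 and 0.12. Those 10 were Eif3a (0.12), Eif3b (0.09), Eif3c (0.02), Eif3d (−0.03), Eif3e (−0.14), Eif3f (−0.08), Eif3g (0.01), Eif3k (0.01), Eif3l (−0.12) and Eif3m (−0.24). In the slide-blocked fit Eif3m (−0.36, adjusted p = 0.00786) and Eif3e (−0.18, adjusted p = 0.0330) were called lower, and Eif3m also on slide 1 alone (adjusted p = 0.0277). Eif3a, the subunit that seeds assembly, was at 3.17 to 3.36 in C and at 3.30 to 3.46 in R, with groups that overlapped (adjusted p = 0.141).

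Eif3j1 and Eif3j2 are near-identical copies of the loosely bound j subunit, and they were called in opposite directions. Eif3j2 read 0.64, 0.66, 0.35, 0.41 and 0.27 in C1 to C5 and 1.09, 1.18, 1.24, 1.28 and 0.71 in R1 to R5. Eif3j1 read −0.19, 0.13, −0.17, −0.12 and 0.08 in the C arrays and −0.39, −0.22, −0.41, −0.32 and −0.49 in the R arrays. The groups were separate for both, though R5 was close to the C arrays for Eif3j2 and R2 for Eif3j1. Eif3j2 was 1.55-fold higher (95% interval 1.28 to 1.88, adjusted p = 0.00538) and Eif3j1 was 1.24-fold lower (95% interval 1.09 to 1.42, adjusted p = 0.0181). In the slide-blocked fit the changes were 0.48 and −0.35, on slide 1 they were 0.54 and −0.31, and on slide 2 they were 0.36 and −0.43. Each copy had 1 tested probe, probe sequences were not used here, and how far each probe also reads the other copy was not tested.

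The other eIF3 genes that were called were lower. Eif3i, which encodes a WD repeat subunit, was at 3.41 to 3.71 in C and at 3.16 to 3.33 in R, 1.27-fold lower (95% interval 1.13 to 1.41, adjusted p = 0.00696). Eif3h, one of the subunits with an MPN fold, was at 5.50 to 5.95 in C and at 5.29 to 5.48 in R, 1.22-fold lower (95% interval 1.06 to 1.41, adjusted p = 0.0359). The groups were separate for both genes, and the nearest arrays of Eif3h, C3 and R2, were almost level. The call of Eif3h was lost without C5 (adjusted p = 0.0703), R1 (adjusted p = 0.0688), R3 (adjusted p = 0.0743), R4 (adjusted p = 0.0715) or R5 (adjusted p = 0.0738).

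The cap-binding complex had members called in both directions, 2 higher and 3 lower of 10 tested, against 14.9% and 20.6% of all genes. Eif4e encodes the protein that binds the cap. It read 1.36, 1.52, 1.13, 1.10 and 1.18 in C1 to C5 and 1.0, 0.99, 0.86, 0.86 and 0.88 in R1 to R5. The R arrays were all below the C arrays, and C1 and C2 were the highest. Its signal was 1.27-fold lower (95% interval 1.10 to 1.46, adjusted p = 0.0162), with changes of −0.42 in the slide-blocked fit, −0.51 on slide 1 and −0.26 on slide 2. Eif4e2, a relative that binds the cap without eIF4G, had groups that overlapped (0.06, 95% interval −0.06 to 0.18), and Eif4e1b, a germ cell form that was above background on 9 arrays, changed by −0.17 (95% interval −0.48 to 0.14). Eif4e1b was called lower in the slide-blocked fit (−0.33, adjusted p = 0.0220) and on slide 1 alone (adjusted p = 0.0345). Eif4e3 was above background on 1 C and 1 R array, and it was not tested.

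The scaffold genes Eif4g1 and Eif4g3 were higher on their brightest probes, though another probe of Eif4g1 was level (0.02, adjusted p = 0.881). Eif4g1 read 2.18, 1.87, 2.38, 2.44 and 2.21 in C1 to C5 and 2.78, 2.88, 2.75, 2.75 and 2.88 in R1 to R5. The R arrays were close together and above every C array, and C2 was the lowest. The signal was 1.51-fold higher (95% interval 1.29 to 1.77, adjusted p = 0.00342), with changes of 0.69 in the slide-blocked fit, 0.77 on slide 1 and 0.54 on slide 2. Eif4g3, the scaffold paralogue whose loss is known to arrest spermatocytes in meiosis, read 3.53, 2.93, 3.87, 3.86 and 3.58 in the C arrays and 3.91, 3.91, 4.0, 4.06 and 4.20 in the R arrays. C2 was far below the other arrays, and C3 and C4 came close to the lowest R arrays. It was 1.38-fold higher (95% interval 1.07 to 1.78, adjusted p = 0.0484), a call that was lost without C1 (adjusted p = 0.0820), C5 (adjusted p = 0.0774) or any of R1 to R5 (adjusted p = 0.0644 to 0.101), and also with array weights (0.24, adjusted p = 0.0680), quantile normalisation (adjusted p = 0.0582) and the authors' scaling factors (adjusted p = 0.0525). Without C2 it was called with a smaller change (0.31, adjusted p = 0.0335).

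Eif4g2 encodes a scaffold that lacks the part that binds eIF4E and serves cap-independent initiation. Its brightest probe read 2.09, 1.99, 2.19, 2.12 and 2.22 in C1 to C5 and 1.81, 1.73, 2.0, 1.89 and 2.02 in R1 to R5. The groups overlapped, with R3 and R5 above C2. The signal was 1.18-fold lower (adjusted p = 0.0379), and the call was lost without C1 (adjusted p = 0.0569), C3 (adjusted p = 0.0696), C4 (adjusted p = 0.0572), C5 (adjusted p = 0.0799), R1 (adjusted p = 0.0873), R2 (adjusted p = 0.0784) or R4 (adjusted p = 0.0730), and with the authors' scaling factors (adjusted p = 0.167).

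Of the helicases, Eif4a2 was lower on its brightest probe and level on its other probe (−0.00, adjusted p = 0.964), and Eif4a1 was not called. Eif4a2 read 2.45, 2.89, 2.46, 2.48 and 2.63 in C1 to C5 and 2.12, 2.12, 2.15, 2.15 and 2.17 in R1 to R5. The R arrays were nearly level and below every C array. Its signal was 1.36-fold lower (95% interval 1.19 to 1.55, adjusted p = 0.00552), with changes of −0.47 in the slide-blocked fit, −0.53 on slide 1 and −0.36 on slide 2. Eif4a1 was spread widely, from 3.14 in C3 to 4.15 in C2 and from 3.07 to 3.53 in R, and its groups overlapped (−0.20, 95% interval −0.61 to 0.20). In the slide-blocked fit it was lower and called (−0.42, adjusted p = 0.0129). The helicase cofactors Eif4b (−0.07) and Eif4h (−0.13) were not called, though Eif4h was called lower in the slide-blocked fit (−0.21, adjusted p = 0.0131).

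Promoters of cap complex genes that were called in opposite directions held the same E-box, CACGTG, the motif that Myc binds. It was found in 12 of the 57 initiation factor windows (21.05%), belonging to 10 genes, and in 7.15% of all windows. Of the 10 genes, Eif4e, Eif5a2 and Eif1b were lower, Eif4g1 was higher, and Eif4h, Eif3k, Eif3f, Eif4a1, Eif5a and Eif3a were not called. The bases before the starts of 3 of them are at chr3:138527018-138527267, chr16:20672477-20672726 and chr3:28781127-28781276, all on the plus strand, with the E-boxes in capitals:
Eif4e: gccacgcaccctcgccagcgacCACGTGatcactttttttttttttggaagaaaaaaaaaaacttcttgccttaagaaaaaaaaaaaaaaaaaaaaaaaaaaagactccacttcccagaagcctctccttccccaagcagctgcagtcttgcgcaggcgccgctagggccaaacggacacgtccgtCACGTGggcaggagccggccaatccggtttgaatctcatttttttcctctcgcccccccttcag
Eif4g1: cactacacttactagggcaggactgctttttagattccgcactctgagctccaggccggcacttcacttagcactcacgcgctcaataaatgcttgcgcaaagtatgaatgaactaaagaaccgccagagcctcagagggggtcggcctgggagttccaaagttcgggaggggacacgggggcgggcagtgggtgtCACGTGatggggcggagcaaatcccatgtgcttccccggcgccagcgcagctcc
Eif5a2: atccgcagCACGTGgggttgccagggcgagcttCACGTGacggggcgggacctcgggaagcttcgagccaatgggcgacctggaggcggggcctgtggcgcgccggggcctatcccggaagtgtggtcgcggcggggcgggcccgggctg
The printed stretches of Eif4e and Eif5a2 hold 2 E-boxes each and that of Eif4g1 holds 1. The other motifs searched on both strands were the cAMP response element TGACGTCA, in 0 initiation factor windows and 1.79% of all, and the NRF1 motif, in 1.75% and 0.971%.

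Inhibitors of the cap complex compete with eIF4G for eIF4E, and 1 of 4 was higher, against 14.9% of all genes. Eif4ebp3 read 1.0, 0.46, 1.25, 1.19 and 0.90 in C1 to C5 and 1.33, 1.26, 1.45, 1.45 and 1.55 in R1 to R5. C2 was far below the rest, and C3 nearly reached R2, the lowest R array. The signal was 1.36-fold higher (95% interval 1.10 to 1.69, adjusted p = 0.0314), a call lost without C5 (adjusted p = 0.0611), R1 (adjusted p = 0.0531), R3 (adjusted p = 0.0620), R4 (adjusted p = 0.0644) or R5 (adjusted p = 0.0692), as well as with the array median. With array weights the change was 0.26 (adjusted p = 0.0326). Eif4ebp1, at 1.21 to 1.47 in C and at 1.04 to 1.20 in R, changed by −0.18 (adjusted p = 0.0587). Eif4ebp2, at 0.39 to 0.61 in C and at 0.56 to 0.72 in R, changed by 0.18 (adjusted p = 0.0514). Eif4enif1, which carries eIF4E into the nucleus and into granules, changed by −0.18 (adjusted p = 0.0613). With the slide in the fit Eif4enif1 (−0.22, adjusted p = 0.0275) and Eif4ebp1 (−0.21, adjusted p = 0.0352) were called lower. A second probe of Eif4enif1 was called higher in that fit (adjusted p = 0.0113). Over the mean of both probes, without the slide, Eif4enif1 was not called (0.03, adjusted p = 0.670).

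The remaining genes have names of this family but act elsewhere. Eif4a3 belongs to the exon junction complex, Eif5a and Eif5a2 are hypusine-bearing factors of elongation, and Eif6 keeps the ribosomal subunits apart. Eif5a2 read −1.60, −1.35, −1.52, −1.56 and −1.52 in C1 to C5 and −2.26, −1.96, −1.93, −2.14 and −1.80 in R1 to R5. The groups were well apart, and R5 was the nearest R array. The signal was 1.42-fold lower (95% interval 1.23 to 1.65, adjusted p = 0.00446), with changes of −0.48 in the slide-blocked fit, −0.60 on slide 1 and −0.26 on slide 2. Eif4a3 read 0.88, 1.02, 0.68, 0.64 and 0.75 in the C arrays and 0.31, 0.40, 0.35, 0.30 and 0.47 in the R arrays. The groups were separate, with C2 again the highest. Its signal fell 1.34-fold from C to R (95% interval 1.18 to 1.53, adjusted p = 0.00513), a change of −0.43, or −0.47 in the slide-blocked fit, −0.61 on slide 1 and −0.22 on slide 2. Eif4a3l1, a copy of Eif4a3, changed by −0.20 (adjusted p = 0.0571), Eif5a by −0.02 (95% interval −0.32 to 0.28) and Eif6 by −0.23 (adjusted p = 0.0804). With the slide in the fit Eif4a3l1 (−0.25, adjusted p = 0.0152) and Eif6 (−0.30, adjusted p = 0.0301) were called lower.

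Copies of a factor were set against each other within each array, which removes the scaling between arrays. Of 11 such pairs fixed for the comparison 10 could be run, since Eif4e3 was not tested. By an exact 2-sided permutation test, whose smallest possible p is 0.00794, 7 of the 10 pairs changed between the groups after adjustment over the 10 pairs. With 35.6% of all genes called alone, pairs of unrelated genes may pass as well, and their share was not tested. The widest was Eif3j2 minus Eif3j1, which ran from 0.18 to 0.83 in C and from 1.20 to 1.65 in R, a difference of 0.95 (95% interval 0.65 to 1.25, exact adjusted p = 0.0132). Eif4g2 minus Eif4g1 ran from −0.31 to 0.12 in C and from −1.16 to −0.75 in R, a difference of −0.83 (95% interval −1.06 to −0.59, exact adjusted p = 0.0132). For both pairs the groups were far apart, but the second was −0.15 and did not pass over the mean of each gene's probes (adjusted p = 0.129, exact test).

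Smaller differences also passed. Eif4e2 changed relative to Eif4e by 0.41 (95% interval 0.16 to 0.65), Eif4ebp2 relative to Eif4ebp1 by 0.36 (95% interval 0.18 to 0.54), Eif1ax relative to Eif1a by −0.37 (95% interval −0.60 to −0.14) and Eif1b relative to Eif1 by −0.25 (95% interval −0.37 to −0.14). Each of these 4 had groups that did not overlap and an exact adjusted p of 0.0132. Neither Eif4ebp1 nor Eif4ebp2 was called alone. Eif5a2 minus Eif5a differed by −0.49 (exact adjusted p = 0.0454), but R5 lay among the C arrays and the pair no longer passed without C3, C4, C5, R1, R2 or R4 (exact adjusted p = 0.0680 to 0.0794) or with normexp background correction (exact adjusted p = 0.0907). The pairs Eif4a2 and Eif4a1 (−0.24, 95% interval −0.60 to 0.13, exact p = 0.151) and Eif4g3 and Eif4g1 (−0.13, 95% interval −0.35 to 0.08, exact p = 0.190) did not pass. The last passed without C2 (−0.20, exact adjusted p = 0.0340).

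**Figure D3:**
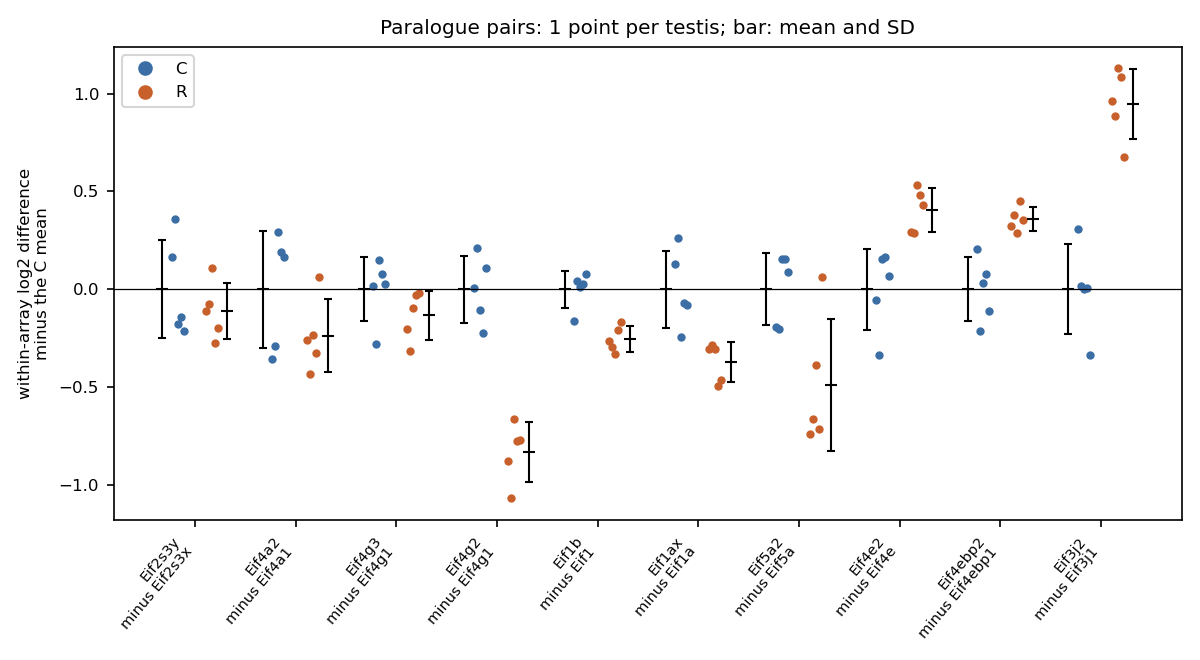
Within-array log2 difference between the copies of 10 pairs (vertical axis, with the C mean of each pair set to 0), 1 point per testis in C (blue) and R (orange), with the mean and SD of each group as a bar. The R points of Eif3j2 minus Eif3j1 lie 0.95 higher on average and those of Eif4g2 minus Eif4g1 0.83 lower, while the groups overlap for Eif2s3y minus Eif2s3x.

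Different probes of a gene did not always give the same result. Of the 78 tested probes of these genes 11 were called higher and 19 lower, against 21.4% and 17.1% of all tested probes (38.6% in all). For 19 genes more than 1 probe was tested, 42 probes in all. No probe was called for 6 of these genes, every probe was called the same way for Eif2b3, Eif3h and Eif4g3, and 9 had called and uncalled probes. Eif4g2 was the gene with probes called both ways, as were 4.65% of the 5614 genes with several tested probes.

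The brightest Eif4g2 probe was lower, and the probe listed for NM_001040131 was higher. That probe read 0.60, 0.41, 0.59, 0.54 and 0.38 in C1 to C5 and 1.33, 1.48, 1.08, 1.32 and 1.19 in R1 to R5. Its groups were far apart, with a signal 1.71-fold higher in R (0.78, adjusted p = 0.00101). The last probe of Eif4g2, listed for NM_013507 like the brightest, changed by 0.16 (adjusted p = 0.123). Over the mean of its probes Eif4g2 was higher by 0.23 (adjusted p = 0.0121), so that its direction depends on the probe.

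Eif4g1 showed a like split. The brightest probe, listed for NM_001304432, was higher by 0.60, while of the probes listed for NM_145941 one was level (0.02, adjusted p = 0.881) and one was dim and above background on 7 arrays (0.53, adjusted p = 0.0624). Over the mean of its probes Eif4g1 was higher by 0.38 (adjusted p = 0.00791). Eif4e2 changed by 0.06 on its brightest probe and by 0.49 on the probe listed for NM_001347083, which was at 2.65 to 3.03 in C and at 3.26 to 3.46 in R (adjusted p = 0.00388). For Eif4a2 the brightest probe was lower and the other was level (−0.00, adjusted p = 0.964), and the mean of both was lower by −0.22 (adjusted p = 0.0112). Eif5a and Eif6 had a second probe that was lower, by −0.32 (adjusted p = 0.00811) and −0.30 (adjusted p = 0.0164). A second probe of Eif2s3x, above background on 8 arrays, was higher by 0.60 (adjusted p = 0.0166), and a second probe of Eif4enif1 was higher by 0.24 (adjusted p = 0.0363), though not with the array median as reference (adjusted p = 0.778). For Eif2d one of 2 further probes was lower (−0.23, adjusted p = 0.0399) and the other changed by 0.30 (adjusted p = 0.0542). The probes' accessions are those of the array's annotation, and which transcripts each probe reads was not tested.

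**Figure D4:**
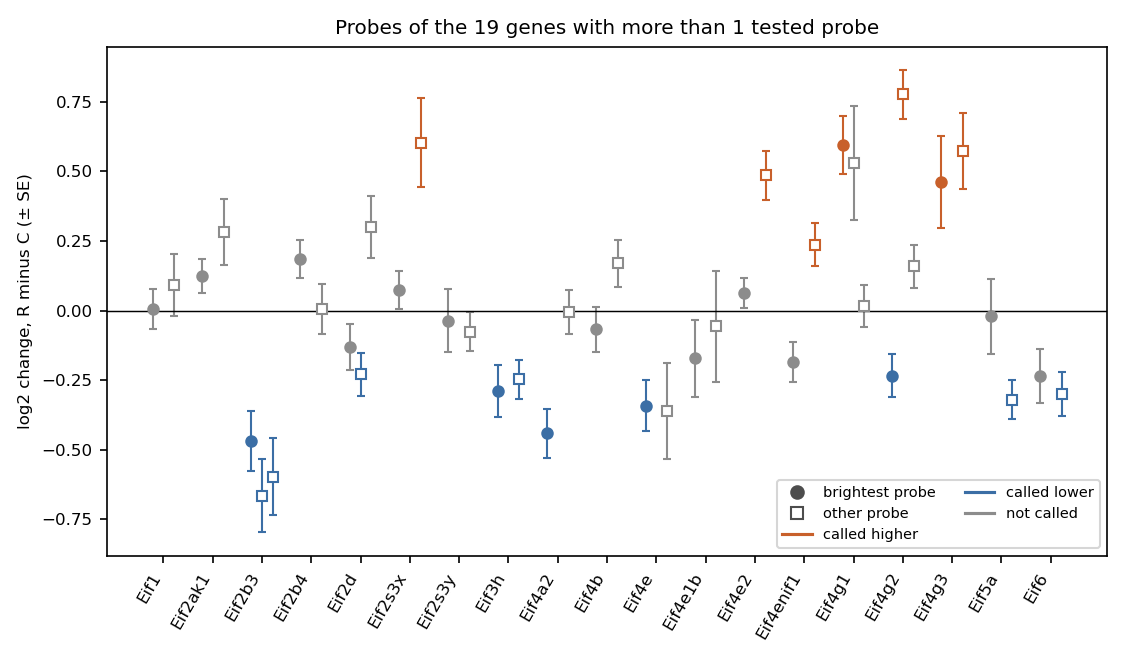
Log2 change in R against C (vertical axis, with the SE as a bar) of the 42 tested probes of the 19 initiation factor genes with more than 1 tested probe, with the brightest probe of a gene as a filled circle and its other probes as open squares. Eif4g2 has a probe called lower (−0.23) and a probe called higher (0.78), and all 3 probes of Eif2b3 are lower.

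Proteins that work with the initiation factors were read from a list of 24 genes, of which 5 were higher and 4 lower, with a median of 0.05. Of all genes tested, 14.9% were higher and 20.6% lower, 35.6% in all. The largest change was in Pdcd4, an inhibitor of the helicase eIF4A. It read 3.58, 2.69, 3.70, 3.83 and 3.82 in C1 to C5 and 4.60, 4.75, 4.39, 4.51 and 4.38 in R1 to R5. The R arrays were all above the C arrays, and C2 was far below them. The signal was 2.0-fold higher (adjusted p = 0.00595). The poly(A)-binding protein gene Pabpc6, at 2.71 to 3.65 in C and at 3.99 to 4.11 in R, was 1.68-fold higher (adjusted p = 0.00746). Larp1, a binder of oligopyrimidine messenger RNA, was 1.57-fold higher (adjusted p = 0.00625) and the scanning helicase Dhx29 was 1.37-fold higher (adjusted p = 0.00585). Pabpc2 was 1.21-fold higher (adjusted p = 0.0103), but not with the array median as reference (adjusted p = 0.559).

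Dazl, the germ cell protein that recruits poly(A)-binding protein to messenger RNA, was lower. It read 1.42, 1.93, 1.08, 1.13 and 1.47 in C1 to C5 and 0.55, 0.59, 0.38, 0.49 and 0.54 in R1 to R5. The groups were well apart, and C2 was the highest array. The signal was 1.86-fold lower (adjusted p = 0.00281). Paip1, a partner of poly(A)-binding protein and eIF4A, was 1.41-fold lower (adjusted p = 0.0147), and Abce1, which splits ribosomes, was 1.17-fold lower (adjusted p = 0.0156). Larp4 was 1.13-fold lower (adjusted p = 0.0226, up to 0.0600 with 1 array left out). The helicase copies Ddx3x (−0.26, adjusted p = 0.129) and Ddx3y (−0.27, adjusted p = 0.161) were not called.

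Later steps of translation also had members in both directions. Of 13 tested genes of elongation and release 2 were higher and 3 lower, against 14.9% and 20.6% of all genes, with a median of −0.02. Eef1e1, a scaffold of the transfer RNA synthetase complex, was at −0.63 to 0.19 in C and at −1.34 to −0.96 in R, 1.83-fold lower (adjusted p = 0.00328), and the release factor Gspt2 was 1.45-fold lower (adjusted p = 0.0141). Dhps, the enzyme that begins the hypusine modification of eIF5A, was 1.23-fold lower (adjusted p = 0.0142). Eef2 (0.19, adjusted p = 0.0370) and Eefsec (0.25, adjusted p = 0.0205) were higher, but neither was called with the array median as reference (adjusted p = 0.911 and 0.684). Of the mitochondrial initiation factors, Mtif2 was 1.58-fold higher (adjusted p = 0.0314, up to 0.0717 with 1 array left out), and Mtif3 was not called (−0.14, adjusted p = 0.135).

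The authors' deposited table of their own comparison lists 6 probes of initiation factor genes, Eif1a, Eif2ak4, Eif2b2, Eif2s3x, Eif4e and Eif4g1, all with a q-value of 0.515. The log2 ratios in the authors' deposited table were −0.40 for Eif2ak4 and −0.23 for Eif4e, and 0.16 for the Eif4g1 probe that was level here. That table forms its ratios with R1 on the control side and C5 on the test side, against the group labels. With that grouping in the same limma fit, 0 initiation factors and 0 genes were called, at a lowest adjusted p of 0.461. Without R1 and C5, 11 of the 19 called genes were called, and calls over all genes fell from 5955 to 2659. Eif2ak3 (adjusted p = 0.0707), Eif1ax (adjusted p = 0.0705), Eif3j1 (adjusted p = 0.0856) and Eif1b (adjusted p = 0.0589) were lost along with Eif3h, Eif4ebp3, Eif4g2 and Eif4g3. The changes of Eif1ax (−0.39), Eif1b (−0.24), Eif3h (−0.28) and Eif4ebp3 (0.45) were then close to those with all arrays. That of Eif4g3 was larger (0.49), and those of Eif2ak3 (−0.69), Eif3j1 (−0.27) and Eif4g2 (−0.19) were smaller. The SE was larger for each of the lost genes, at 0.133 against 0.106 for Eif1ax.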

How the data were processed

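Each testis was hybridised to 1 one-colour Agilent array (SurePrint G3 mouse), labelled with Cy3 after amplification, and either of 2 column kits had served to extract RNA. The authors deposited the scanner's spot intensity values, read with Agilent Feature Extraction 12.0.3.1 according to the submitters' processing notes. The processed intensity is, per the file headers, corrected for background and spatial trend in each array, with no normalisation between arrays, and the headers name mm9. The authors' deposited table also held scaled intensity, log2 ratio, p-value and q-value columns. Its 10 other per-sample columns were not used here.

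Control and outlier spots were left out, spots of a probe were averaged, and the log2 of the intensity was set against the array's 75th percentile. A probe was tested (33851 of 56605) if at least 5 of 10 arrays had it well above background. Accessions named 33767 of the 56605 probes on the array, tested or not, through a RefSeq gene table of GRCm38.p6. Of 68 Eif symbols in that table, 12 had no probe, 11 of them pseudogenes. The 56 genes lay on 83 probes, of which 78 (55 genes) were tested, and 53 genes were above background on every array. The brightest probe stood for a gene. The R and C groups were fitted with limma 3.58.1 (R 4.3.3; lmFit then eBayes, 2-sided, Benjamini-Hochberg over all tested probes). Copies were compared by exact permutation (scipy 1.17.1), and 95% intervals come from the limma fit or, for pairs, from the spread between arrays. The number of arrays limits the precision.

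On simulated data of 33851 probes the fit called 83% of 2-fold changes, 97% of 4-fold changes and 9 of 33651 unchanged probes. The simulated noise was independent between probes, with no array or slide effect and few changed probes. Changes under 2-fold were not simulated, so these shares do not give the error rates of the calls above. Genes with per-array values were the called members with the largest change (up to 6 each way) and a fixed list of others, and probes and partner genes described in that detail were chosen after their values were seen. The members, lists, pairs and tests were chosen with earlier results of these data known. Alternatives covered background correction, scaling, filters, probe choice, variance models, slides and arrays left out.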

Additional observations from a re-analysis of the deposited data

Results flagged for a closer look

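In 9 of 176 groups of 5 arrays examined over members, their other probes and the pairs, 1 array stood apart from the other 4, with a gap to its neighbour over 0.71 of the group's range. Chance marks about 1 group in 20, which is close to this share. C2 was the array in 4 of them: Eif1b at 4.71 (other C arrays 4.50 to 4.54), Eif2a at −1.59 (−2.09 to −1.97), Eif2d at 1.39 (1.02 to 1.11) and the second probe of Eif6 at 2.22 (1.87 to 1.94). C1 stood apart for Eif4ebp2, at 0.61 (0.39 to 0.43), and for Eif1b minus Eif1, at −1.68 (−1.50 to −1.43). R2 stood apart for Eif2ak2, at 0.61 (other R arrays 0.10 to 0.21), and for Eif3l, at 4.34 (4.17 to 4.22). R4 was the lowest array of the second Eif4b probe, at −0.98 (−0.85 to −0.80). Both called genes among these, Eif1b and Eif2ak2, were called with that array left out.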

How the results depend on the processing

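Of the 19 called initiation factors, 15 were called with each array left out in turn. Eif4ebp2 was also called without C1 (adjusted p = 0.0239), Eif2b4 without C3 (adjusted p = 0.0388), and Eif2a, Eif4a3l1, Eif4enif1 and Eif6 without C4 (adjusted p = 0.0300 to 0.0481). Leaving out 1 array gave 15 to 22 initiation factors called (4 to 7 higher, 11 to 16 lower), 4101 to 6408 genes (1647 to 2709 higher, 2454 to 3699 lower; 1647 without R4), 9245 to 13550 probes (4949 to 7446 higher, 4154 to 6104 lower) and 6 to 8 pairs past the threshold. With the array median as reference 3 initiation factors were higher and 24 lower, as were 909 and 6241 genes and 4029 and 10568 probes. With no filter 3785 genes were called (1527 higher, 2258 lower), over more probes tested, and Eif3h, Eif4ebp3, Eif4g2 and Eif4g3 were not (adjusted p = 0.0686 to 0.0971). Over the mean of probes 11 initiation factors were higher and 14 lower, as were 2707 and 3512 genes, and Eif4g2 turned from −0.23 to 0.23 (adjusted p = 0.0121). With the slide as a block 31 initiation factors (25 lower) and 8624 genes (3829 higher, 4795 lower) were called. Slide 2 alone, with 1 R array, gave 0 calls of initiation factors, genes or probes by limma, higher or lower, though 8750 probes and 11 initiation factors had an unadjusted limma p under 0.05. Without R1 and C5 together 11 initiation factors (7 lower), 2659 genes (958 higher, 1701 lower) and 6116 probes (3187 higher, 2929 lower) were called. The grouping of the authors' deposited table gave 0 initiation factors, 0 genes, 0 probes and 0 pairs, with 2567 probes and 3 initiation factors at an unadjusted limma p under 0.05. The causes were not tested. Normexp correction, quantile normalisation, the authors' scaling factors, the stricter filter, array weights and a trended variance gave 20 to 24 initiation factors and 5854 to 6743 genes, and slide 1 alone 18 and 6622. Pair tests were not run within single slides, under other filters, with array weights or with a trend, and scaling cancels in them. No paired analysis was possible because the labels give no replicate numbers or litters that link animals of the groups. Dim probes limit Eif4e3, Eif4e1b and Eif5b.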
